A study of Mus musculus with 9 samples.

Results

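Calsyntenins, neurexins and neuroligins are families of synaptic adhesion proteins, and the RNA of 8 of their genes was followed in the striatum of mouse embryos: Clstn1, Clstn2, Clstn3, Nrxn2, Nrxn3, Nlgn1, Nlgn2 and Nlgn3. The genes were chosen by symbol, by matching the Ensembl identifiers of the count files to GENCODE M21, and are 8 of the 44886 genes counted. Of these 8, 7 passed the filter on low counts, as did 16368 genes in all, and Nrxn2 did not. Clstn2 was called as higher than in controls in both Ebf1 mutants, 1.60-fold in Islet1Cre;Ebf1fl/- and 1.71-fold in Dlx5/6::Cre;Ebf1fl/-. Over all genes tested, 0.971% and 2.39% were called, respectively. Neither Clstn2 call was kept in every alternative fit. No change was called for the other 6 genes that could be tested.

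Striata were dissected at E17.5 from 9 embryos on a background labelled C57BL/6, 3 for each of 3 genotypes, and 1 library of polyadenylated RNA was made per embryo according to the labels. Islet1Cre;Ebf1fl/- embryos carry a floxed and a null allele of Ebf1, a transcription factor of direct-pathway striatal projection neurons (dSPN), with Cre driven from the Islet1 locus, which recombines in dSPN and cholinergic interneurons. In Dlx5/6::Cre;Ebf1fl/- embryos the same alleles are combined with a Dlx5/6 transgene that drives Cre in all striatal projection neurons (SPN) and interneurons. Both crosses mated males heterozygous for the null allele and carrying Cre with females homozygous for the floxed allele, so controls also carry a floxed allele of Ebf1. According to the study's methods controls were heterozygous embryos, and the labels do not say which of them carried Cre or the null allele. The same methods state that the Islet1Cre and Drd2-EGFP lines were kept on a mixed background, B6D2F1/J, unlike the other lines. Drd2-EGFP is not part of the genotypes used here.

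The genotypes of the libraries could not be checked from Ebf1, because its counts cover the whole gene and may include exons outside the floxed part. Its normalized count, the count divided by the library's DESeq2 size factor, was 7945, 14208 and 9697 in controls 1 to 3, 13210.0 to 15343 in Islet1Cre;Ebf1fl/- and 11774 to 15312 in Dlx5/6::Cre;Ebf1fl/-. Libraries held 16.5 to 41.5 M counts and the total was lowest in Islet1Cre;Ebf1fl/- replicate 3. Embryo codes begin with IE in controls 1 and 2 and in every Islet1Cre;Ebf1fl/- embryo, and with D in control 3 and in every Dlx5/6::Cre;Ebf1fl/- embryo. Control 3 and Islet1Cre;Ebf1fl/- replicate 3 held both Xist, which is transcribed from the inactive X chromosome, and Y-linked RNA, with summed normalized counts of 295 and 2450 for 4 Y-linked genes. These libraries may therefore not hold the RNA of a single embryo each, which was not tested, and they are counted here as their labels give them. Control 2 held Y-linked RNA almost without Xist, at 3.27, and the other 6 libraries held Xist with at most 3.62 normalized counts of Y-linked RNA. All 10 SPN markers were counted in every library, and their summed level was 2439 to 2854 CPM (counts scaled to a common library total) in controls, 2504 to 2555 in Islet1Cre;Ebf1fl/- and 2024 to 2524 in Dlx5/6::Cre;Ebf1fl/-. Of the 52 markers tested edgeR called 1, the SPN transcription factor Foxp1, which was lower in Dlx5/6::Cre;Ebf1fl/- (log2 fold change −0.53, adjusted p = 0.0305). DESeq2 called 0 in Islet1Cre;Ebf1fl/-. In Dlx5/6::Cre;Ebf1fl/- it called 3 as higher, 2 cortical and 1 microglial, and 4 as lower, 2 of SPN and 2 of interneurons. Single SPN markers went both ways, with log2 fold changes of −0.53 to 0.67 in Islet1Cre;Ebf1fl/- and −1.12 to 0.53 in Dlx5/6::Cre;Ebf1fl/-. Over all genes tested, DESeq2 called 401 and 862, respectively. The summed level of 7 markers of cortical excitatory neurons was 33.2 to 80.0 CPM in controls, 32.5 to 60.1 in Islet1Cre;Ebf1fl/- and 81.4 to 192 in Dlx5/6::Cre;Ebf1fl/-, and 7 of 7 had a count in every library. The summed level of 5 markers of dividing cells was 65.6 to 87.5 CPM in controls, 89.8 to 115 in Islet1Cre;Ebf1fl/- and 76.0 to 395 in Dlx5/6::Cre;Ebf1fl/-. In tissue RNA, fewer cells of a type and less RNA per cell cannot be told apart.

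Neurexins are presynaptic membrane proteins that reach across the synaptic cleft and bind a range of postsynaptic partners, among which neuroligins are the best known. Neuroligin-1 is found mainly at excitatory synapses, neuroligin-2 at inhibitory synapses, and neuroligin-3 at both. Calsyntenins are cadherin-related proteins of the postsynaptic membrane that have been described as neurexin partners, and calsyntenin-1 also links cargo to kinesin light chains during axonal transport. SPN are GABAergic neurons that receive excitatory input from cortex and thalamus and form inhibitory synapses on one another and on their targets.

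Compared per length of exon, the members differed widely in level. For these levels, CPM used library totals scaled by TMM, the library scaling of edgeR. In controls the levels, in CPM per kb of exon, were 89.4 ± 5.57 for Clstn1, 63.4 ± 5.32 for Nlgn2, 25.4 ± 3.19 for Clstn3, 11.2 ± 0.565 for Nlgn3, 8.93 ± 1.04 for Nrxn3, 4.55 ± 0.705 for Clstn2 and 0.924 ± 0.169 for Nlgn1 (SD, n = 3 each). No neighbours in this order overlapped among the 3 control embryos. Lengths taken from the longest transcript exchanged Nrxn3, then at 14.2 CPM per kb, and Nlgn3, then at 12.2, in places 4 and 5, and their control ranges then overlapped. In each mutant Nrxn3 stood above Nlgn3 with either length. Per kb of exon their ranges overlapped: in Islet1Cre;Ebf1fl/- the levels were 10.8 ± 1.51 and 10.4 ± 0.364, and in Dlx5/6::Cre;Ebf1fl/- 11.3 ± 1.29 and 10.9 ± 0.942. Per kb of the longest transcript they did not overlap, with means of 17.2 for Nrxn3 and 11.3 for Nlgn3 in Islet1Cre;Ebf1fl/- and 17.9 and 11.9 in Dlx5/6::Cre;Ebf1fl/-. Clstn2 kept place 6 in each genotype, at 7.27 ± 0.264 CPM per kb in Islet1Cre;Ebf1fl/- and 7.79 ± 0.987 in Dlx5/6::Cre;Ebf1fl/-. Nlgn2, the neuroligin of inhibitory synapses, made up 83.9 ± 1.44% of the summed neuroligin level per kb in controls, 84.4 ± 0.769% in Islet1Cre;Ebf1fl/- and 83.0 ± 1.89% in Dlx5/6::Cre;Ebf1fl/-.

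**Figure D1:**
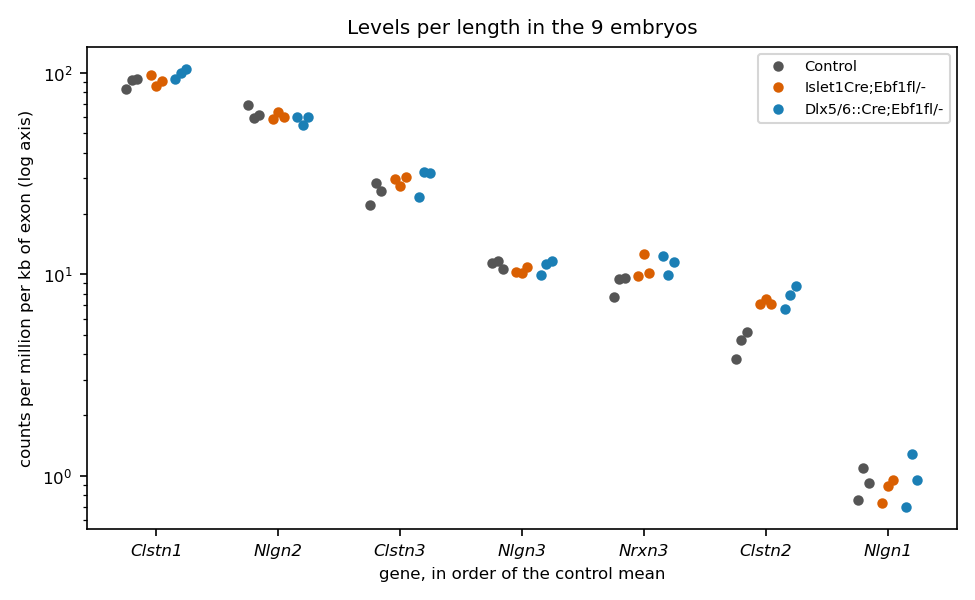
Levels of 7 members in CPM per kb of exon, on a log axis, in the 9 embryos, with 1 point per embryo coloured by genotype and genes in the order of the control mean (Nrxn2 is left out because it was at 0 in 7 libraries). Clstn1 and Nlgn2 lie highest, Nlgn1 lies lowest at about 1 CPM per kb, and for Clstn2 the points of both mutants lie above those of the controls.

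Clstn2 (ENSMUSG00000032452), which encodes calsyntenin-2, lies on chr9:97444395-98033181 of GRCm38, on the minus strand. Its promoter is shown because Clstn2 is the member that was called, together with the promoter of Clstn3 at its outer start, the other window of a member with the same motif. Each window runs from 250 bases before to 50 bases after a RefSeq start (GRCm38.p6) and is written 5′ to 3′ on the gene's strand, with the cyclic AMP response element TGACGTCA, which reads the same on both strands, in capitals. The first window is chr9:98033118-98033417 and the second chr6:124464735-124465034, both on the minus strand.
Clstn2: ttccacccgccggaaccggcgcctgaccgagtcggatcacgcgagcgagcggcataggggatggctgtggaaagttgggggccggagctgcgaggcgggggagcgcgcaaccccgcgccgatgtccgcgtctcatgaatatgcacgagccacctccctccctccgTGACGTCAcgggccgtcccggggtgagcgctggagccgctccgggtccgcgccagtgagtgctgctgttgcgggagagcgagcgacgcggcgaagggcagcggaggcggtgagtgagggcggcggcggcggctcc
Clstn3: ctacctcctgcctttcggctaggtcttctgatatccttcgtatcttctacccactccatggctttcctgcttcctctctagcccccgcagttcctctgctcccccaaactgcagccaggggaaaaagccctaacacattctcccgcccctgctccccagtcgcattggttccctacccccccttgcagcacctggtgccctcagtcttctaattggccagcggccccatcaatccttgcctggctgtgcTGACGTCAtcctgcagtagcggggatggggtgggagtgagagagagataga
The element begins 85 bases before the start of Clstn2 and 1 base before that of Clstn3. It was chosen for display after the sequences had been seen, and was found in 2 of the 10 windows listed for 6 members (Clstn1, Clstn2, Clstn3, Nrxn3, Nlgn1 and Nlgn2) and in 1.79% of all 32851 windows. The palindromic core of EBF sites, CCCNNGGG, was found in 0 of these 10 windows and in 13.67% of all windows. These are matches of letters, and binding was not measured.

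The normalized count of Clstn2 was 647, 810.1 and 886 in controls 1 to 3, 1227, 1303 and 1217 in Islet1Cre;Ebf1fl/- embryos 1 to 3, and 1155, 1357 and 1499 in Dlx5/6::Cre;Ebf1fl/- embryos 1 to 3. Each of the 6 mutant embryos thus lay above each of the 3 controls, and the mutants overlapped with each other. The mean was 781 ± 122 in controls, 1249 ± 46.7 in Islet1Cre;Ebf1fl/- and 1337 ± 173 in Dlx5/6::Cre;Ebf1fl/- (SD, n = 3). The log2 fold change was 0.68 in Islet1Cre;Ebf1fl/- (SE 0.13, 95% interval 0.40 to 0.96, adjusted p = 0.0358) and 0.78 in Dlx5/6::Cre;Ebf1fl/- (SE 0.13, 95% interval 0.50 to 1.05, adjusted p = 0.0110), by the quasi-likelihood test of edgeR with Benjamini-Hochberg adjustment over all genes tested. The difference between the mutants was 0.10 on the log2 scale, with a 95% interval of −0.18 to 0.38 (edgeR, adjusted p = 0.925).

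**Figure D2:**
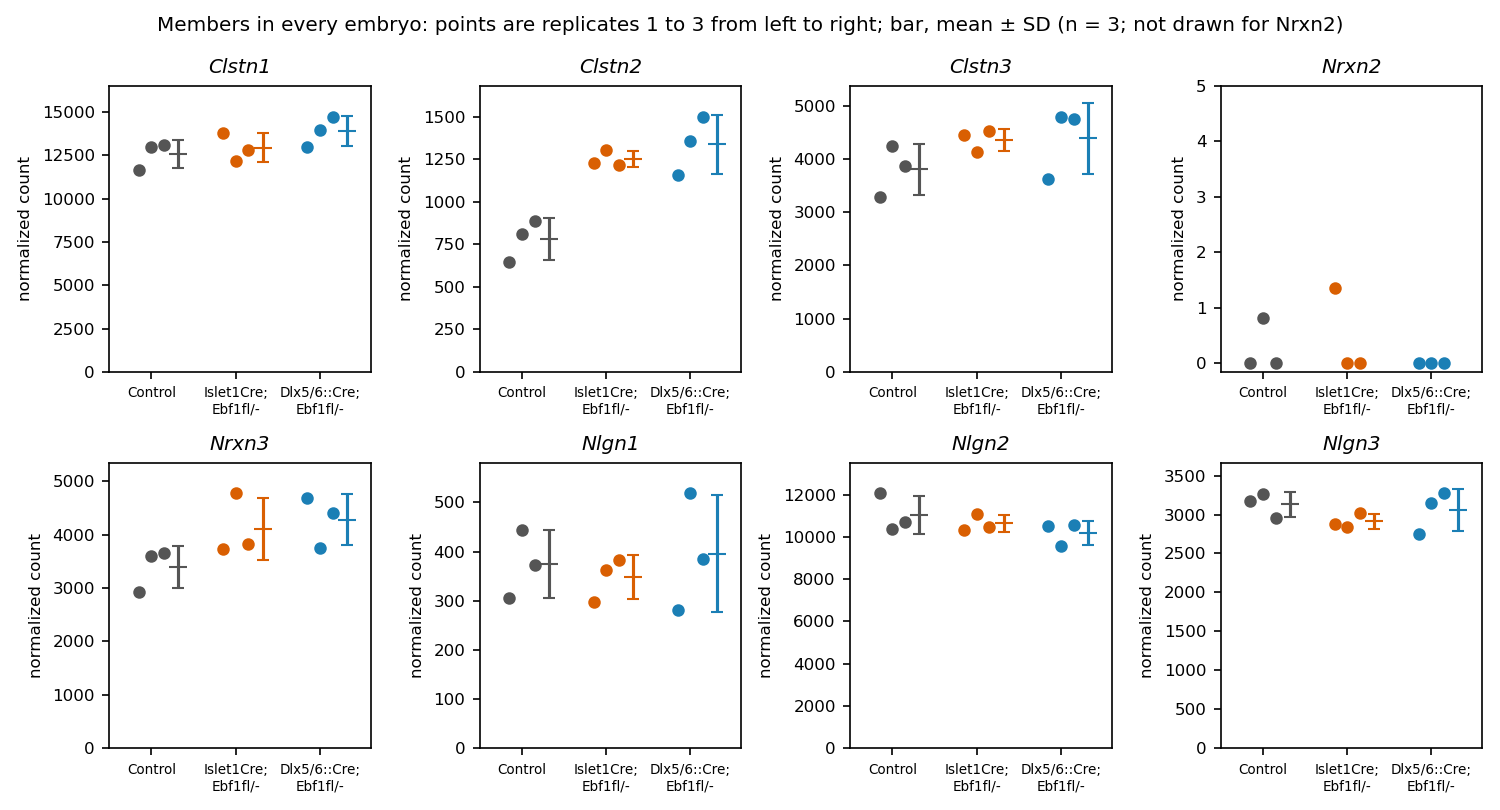
Normalized counts of the 8 members in every embryo, 1 panel per gene with its own axis from 0, with points for replicates 1 to 3 and bars for the mean ± SD (n = 3; not drawn for Nrxn2). For Clstn2 the controls lie between 647 and 886 and the mutants between 1155 and 1499, whereas the genotypes overlap for Clstn1, Clstn3, Nlgn1, Nlgn2 and Nlgn3.

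Of the 7 members tested, 1 was called in Islet1Cre;Ebf1fl/- and 1 in Dlx5/6::Cre;Ebf1fl/-, Clstn2 each time. Over all genes tested, 0.971% were called in Islet1Cre;Ebf1fl/- (0.47% higher than control) and 2.39% in Dlx5/6::Cre;Ebf1fl/- (1.05% higher), and 0.898% were called in both. These comparisons share the 3 control embryos. The members were chosen with earlier results of these data known, so their shares are a description only. All Islet1Cre;Ebf1fl/- embryos lay above all controls for 7.83% of genes tested, and all Dlx5/6::Cre;Ebf1fl/- embryos for 9.63%. Every embryo of both mutants lay above every control for 2 of the 7 members, Clstn2 and Nrxn3, and for 3.63% of all genes tested. The median log2 fold change of the 7 members was 0.04 in Islet1Cre;Ebf1fl/- and 0.14 in Dlx5/6::Cre;Ebf1fl/-, beside −0.0016 and 0.01 over all genes tested.

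Clstn2 was higher than in controls in both mutants under each fit that was run, but its call was not kept in all of them. Leaving out 1 embryo at a time gave log2 fold changes of 0.56 to 0.78 in Islet1Cre;Ebf1fl/-, and the edgeR call was lost without control 1 (0.56, adjusted p = 0.112), control 2 (0.70, adjusted p = 0.102), control 3 (0.78, adjusted p = 0.0564), Islet1Cre;Ebf1fl/- replicate 1 (0.69, adjusted p = 0.145), replicate 2 (0.64, adjusted p = 0.188) or replicate 3 (0.69, adjusted p = 0.0905), or Dlx5/6::Cre;Ebf1fl/- replicate 2 (0.68, adjusted p = 0.0537). In Dlx5/6::Cre;Ebf1fl/- these fits gave 0.66 to 0.88, and the edgeR call was lost without Dlx5/6::Cre;Ebf1fl/- replicate 3 (0.68, adjusted p = 0.0519) and when the fit held only the 6 embryos of the comparison (0.78, edgeR adjusted p = 0.0539). With the code prefix added to the model, which compares embryos of 1 prefix, the log2 fold change was 0.78 in Islet1Cre;Ebf1fl/-, against controls 1 and 2 (edgeR, 95% interval 0.47 to 1.08, adjusted p = 0.0521), and 0.59 in Dlx5/6::Cre;Ebf1fl/-, against control 3 alone, a library with both Xist and Y-linked RNA (edgeR, 95% interval 0.21 to 0.98, adjusted p = 0.323). The latter assumes that this control varies like the other groups, and what the prefix stands for is not given. Without both libraries that held Xist and Y-linked RNA, an alternative chosen after seeing the data, the values were 0.80 in Islet1Cre;Ebf1fl/- (edgeR, adjusted p = 0.130) and 0.87 in Dlx5/6::Cre;Ebf1fl/- (edgeR, adjusted p = 0.0413). The part of the embryo codes, of these libraries and of the SPN, interneuron, cortical and dividing-cell markers in the Clstn2 difference was not tested beyond these fits.

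**Figure D3:**
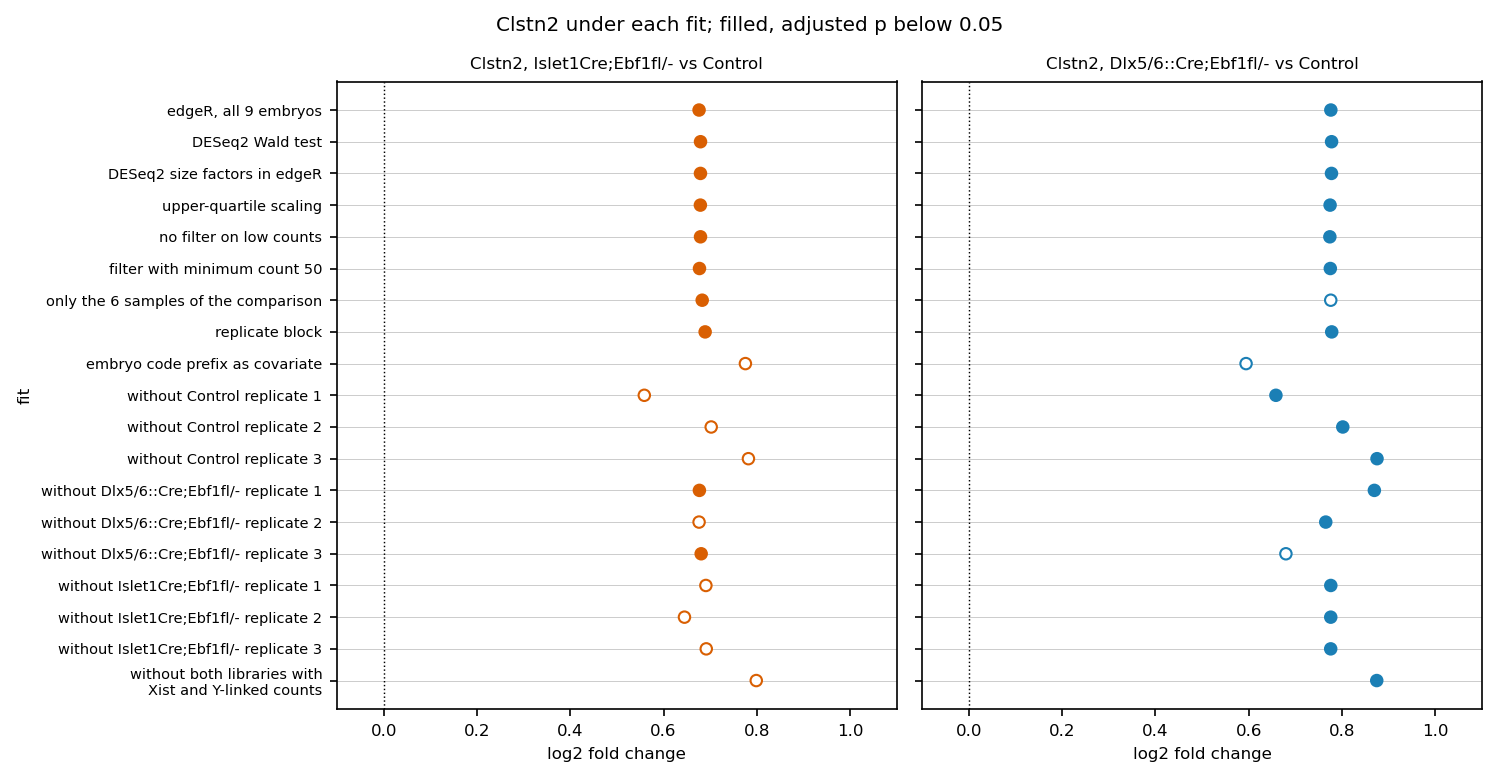
Log2 fold change of Clstn2 over control under each fit, for Islet1Cre;Ebf1fl/- (left) and Dlx5/6::Cre;Ebf1fl/- (right), with filled points where the adjusted p is below 0.05. All points lie above 0, between 0.56 and 0.80 on the left and between 0.59 and 0.88 on the right, and open points mark the fits in which the call was lost.

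Within its family, Clstn2 was a minor transcript in each genotype. It made up 3.80 ± 0.344% of the summed calsyntenin level per kb in controls, 5.68 ± 0.492% in Islet1Cre;Ebf1fl/- and 5.71 ± 0.278% in Dlx5/6::Cre;Ebf1fl/- (SD, n = 3). The share was 3.47 to 4.16% in the control embryos, 5.29 to 6.24% in Islet1Cre;Ebf1fl/- and 5.46 to 6.01% in Dlx5/6::Cre;Ebf1fl/-, so each mutant lay above the controls without overlap. This share is computed from the same Clstn2 counts as above and is not a separate result. With 3 embryos per group an exact permutation test of such a share cannot go below 0.1, and none is given.

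Clstn1 (ENSMUSG00000039953, chr4:149586468-149648899, plus strand), the calsyntenin that binds kinesin light chains, was the most abundant member. Its normalized count was 11638, 12982 and 13091 in controls 1 to 3, 13821, 12170.4 and 12811 in Islet1Cre;Ebf1fl/-, and 12989.6, 13979 and 14739.8 in Dlx5/6::Cre;Ebf1fl/-. Values of either mutant overlapped with those of controls, with a log2 fold change of 0.04 in Islet1Cre;Ebf1fl/- (95% interval −0.15 to 0.22, edgeR adjusted p = 0.999) and 0.14 in Dlx5/6::Cre;Ebf1fl/- (95% interval −0.04 to 0.33, edgeR adjusted p = 0.430).

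Clstn3 (ENSMUSG00000008153, chr6:124430759-124464794, minus strand), described as a promoter of synapse formation through neurexins, was counted at 3289, 4254 and 3876 in controls, 4448, 4128 and 4521 in Islet1Cre;Ebf1fl/-, and 3617, 4799 and 4761 in Dlx5/6::Cre;Ebf1fl/-. The lowest value of each mutant lay within the range of the controls. The log2 fold change was 0.19 in Islet1Cre;Ebf1fl/- (95% interval −0.07 to 0.46, edgeR adjusted p = 0.868) and 0.21 in Dlx5/6::Cre;Ebf1fl/- (95% interval −0.06 to 0.47, edgeR adjusted p = 0.438). For Clstn1 and Clstn3 the intervals leave out differences as large as the 0.68 and 0.78 of Clstn2.

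Nrxn3 (ENSMUSG00000066392, chr12:88722876-90334935, plus strand), which encodes the presynaptic receptor neurexin-3, was counted at 2932, 3592 and 3657 in controls, 3729, 4777 and 3825 in Islet1Cre;Ebf1fl/-, and 4694, 3747 and 4407 in Dlx5/6::Cre;Ebf1fl/-. Every mutant embryo lay above every control, though the lowest of each mutant, 3729 and 3747, was close to the highest control, 3657. The log2 fold change was 0.28 in Islet1Cre;Ebf1fl/- (SE 0.12, 95% interval 0.0009 to 0.55) and 0.34 in Dlx5/6::Cre;Ebf1fl/- (SE 0.12, 95% interval 0.06 to 0.61). Neither passed adjustment over all genes tested, with edgeR adjusted p values of 0.625 and 0.224 (unadjusted 0.0494 and 0.0211). Unadjusted p values were below 0.05 for 7.93% and 15.5% of all genes tested, respectively. Neurexin genes produce long and short forms from separate promoters and are extensively spliced, and counts per gene do not separate these forms.

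Nrxn2 (ENSMUSG00000033768, chr19:6418731-6544169, plus strand), which encodes neurexin-2, was scarcely counted. It had 1 read in control 2, 1 read in Islet1Cre;Ebf1fl/- replicate 1 and 0 reads in each of the other 7 libraries, of 281 M counts in all. It was therefore not tested, and its RNA was not detectable in these counts. At this depth a count of 0 allows up to 3 reads per library, or 5.37 normalized counts in the shallowest. Its exons cover 13812 bases, and none of the 75-base windows of its transcripts occurs in transcripts of another gene. Exons of Nrxn2 overlap those of Slc22a12 and Gm14964 on the opposite strand, and both of these had 0 reads in every library. Of 21579 protein-coding genes, 22.0% had at most 2 reads over all libraries. The study counted reads with an Ensembl annotation, whereas these windows and overlaps were taken from GENCODE M21. They therefore do not show how reads of Nrxn2 were assigned. Whether annotation, counting or a low level of RNA gave so few reads was not tested.

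The neuroligins, postsynaptic partners of neurexins, had estimated log2 fold changes of at most 0.12 in size in either mutant, and none was called. For Nlgn1 the 95% interval reached −0.59 in Islet1Cre;Ebf1fl/- and 0.56 in Dlx5/6::Cre;Ebf1fl/-. Nlgn2 (ENSMUSG00000051790, chr11:69823122-69837784, minus strand) was counted at 12073, 10367 and 10717 in controls, 10335, 11106 and 10488 in Islet1Cre;Ebf1fl/-, and 10497, 9555 and 10542 in Dlx5/6::Cre;Ebf1fl/-. Its log2 fold change was −0.06 in Islet1Cre;Ebf1fl/- (95% interval −0.24 to 0.12, edgeR adjusted p = 0.999) and −0.12 in Dlx5/6::Cre;Ebf1fl/- (95% interval −0.30 to 0.07, edgeR adjusted p = 0.523). Nlgn2 lies on the chromosome of Ebf1, with 25.2 Mb between their starts.

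Nlgn3 (ENSMUSG00000031302, chrX:101299168-101325963, plus strand) was counted at 3172, 3267 and 2957 in controls, 2877, 2843 and 3017 in Islet1Cre;Ebf1fl/-, and 2755, 3149.7 and 3274 in Dlx5/6::Cre;Ebf1fl/-. Control 2, the library almost without Xist, had the highest of the control values of this X-linked gene, at 3267. Dlx5/6::Cre;Ebf1fl/- replicate 3, which held Xist, was at 3274, and the part of sex was not tested. The log2 fold change of Nlgn3 was −0.11 in Islet1Cre;Ebf1fl/- (95% interval −0.28 to 0.07, edgeR adjusted p = 0.932) and −0.03 in Dlx5/6::Cre;Ebf1fl/- (95% interval −0.21 to 0.14, edgeR adjusted p = 0.878). In Dlx5/6::Cre;Ebf1fl/- it was 0.049 with the code prefix in the model.

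Nlgn1 (ENSMUSG00000063887, chr3:25426215-26332460, minus strand), the neuroligin of excitatory synapses, was the lowest member tested. Its normalized count was 306, 444 and 372 in controls, 298, 363 and 383 in Islet1Cre;Ebf1fl/-, and 282, 519 and 386 in Dlx5/6::Cre;Ebf1fl/-. The genotypes overlapped, and the intervals of its log2 fold change were the widest of the 7 members tested, from −0.59 to 0.38 in Islet1Cre;Ebf1fl/- around −0.11 (edgeR, adjusted p = 0.999) and from −0.40 to 0.56 in Dlx5/6::Cre;Ebf1fl/- around 0.08 (edgeR, adjusted p = 0.897). An antisense transcript that overlaps its exons, A830092H15Rik, had 12 to 40 reads per library.

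**Figure D4:**
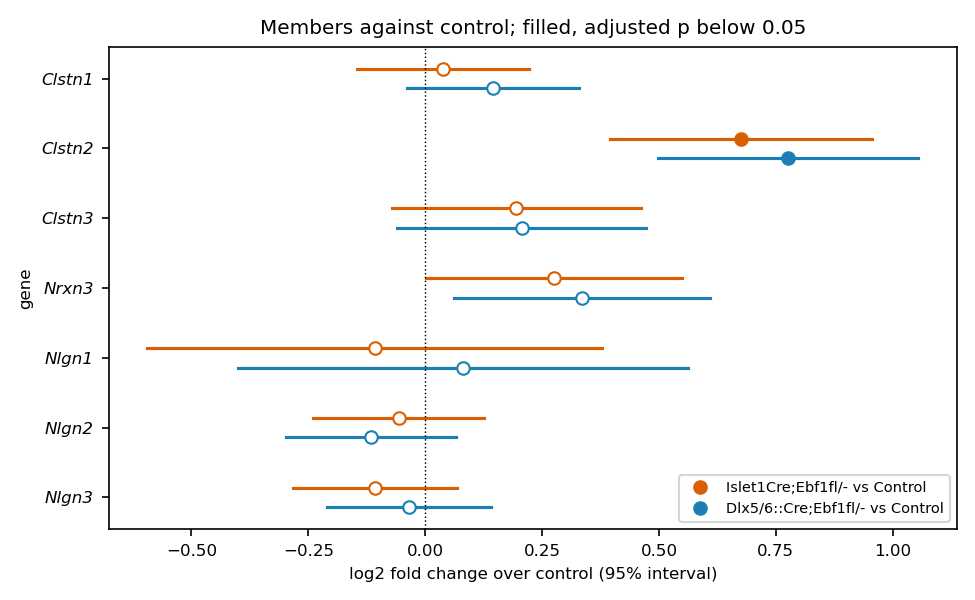
Log2 fold change over control of the 7 members tested, with 95% intervals, for Islet1Cre;Ebf1fl/- (orange) and Dlx5/6::Cre;Ebf1fl/- (blue), filled where the adjusted p is below 0.05. The intervals of Clstn2 begin at 0.40 and 0.50, those of Nrxn3 begin at 0.0009 and 0.06, and the intervals of the other 5 genes include 0.

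Between Dlx5/6::Cre;Ebf1fl/- and Islet1Cre;Ebf1fl/-, the log2 fold changes of the 7 members ranged from −0.06 to 0.19. The embryo code differs between these mutants throughout, so genotype and code cannot be told apart here. With the code prefix in the model, which then rests on the controls, the difference of Clstn2 was −0.18. None was called by edgeR or by DESeq2, and 0 had an unadjusted p below 0.05. Of all genes tested 0% were called by edgeR, 844 genes, or 5.16%, had an unadjusted p below 0.05, and DESeq2 called 18. For all members but Nlgn1 the 95% interval of this difference lay between −0.25 and 0.38, and for Nlgn1 it ran from −0.30 to 0.68.

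Other genes of the same adhesion systems were taken from a list of 71, of which 70 were tested: further neurexin ligands, receptor protein tyrosine phosphatases of the presynaptic membrane with their postsynaptic partners, SynCAMs, inhibitors of neuroligins, scaffolds, factors of calsyntenin transport and cleavage, and regulators of neurexin splicing. In Islet1Cre;Ebf1fl/-, edgeR called 0 of 70 (0.971% of all genes tested), 8 had an unadjusted p below 0.05 (7.93% of all genes tested), and DESeq2 called 2, beside 401 of all 16368 genes. In Dlx5/6::Cre;Ebf1fl/-, edgeR called 2 of 70, Car11 and Ntrk3, both lower (2.39% of all genes tested, 1.34% called as lower), 14 had an unadjusted p below 0.05 (15.5% of all genes tested), and DESeq2 called 3, beside 862 of all genes. The median log2 fold change was −0.01 and 0.03, respectively. None of the 70 was called between the mutants by edgeR or DESeq2, and 8 had an unadjusted p below 0.05 (5.16% of all genes tested). Genotype and embryo code cannot be told apart in this comparison.

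Car11, a secreted carbonic anhydrase-related protein known to bind neurexins, was counted at 7618, 6287 and 7428 in controls, 5957, 7121 and 7492 in Islet1Cre;Ebf1fl/-, and 4311, 5307 and 5142 in Dlx5/6::Cre;Ebf1fl/-. The Dlx5/6::Cre;Ebf1fl/- embryos lay below all controls, as they did for 11.3% of all genes tested. Values of Islet1Cre;Ebf1fl/- overlapped with those of controls. Its log2 difference from control was −0.53 in Dlx5/6::Cre;Ebf1fl/- (SE 0.12, edgeR adjusted p = 0.0392) and −0.06 in Islet1Cre;Ebf1fl/- (edgeR, adjusted p = 0.999), and the difference between the mutants was not called. Without control 1, control 3 or any of the Dlx5/6::Cre;Ebf1fl/- embryos, and without Islet1Cre;Ebf1fl/- replicate 2 or replicate 3, the call in Dlx5/6::Cre;Ebf1fl/- was lost, with values of −0.45 to −0.59 and edgeR adjusted p values of 0.0538 to 0.154. It was also lost when the fit held only the 6 embryos of the comparison (−0.53, edgeR adjusted p = 0.0732).

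Ntrk3, the neurotrophin receptor TrkC that also binds a receptor phosphatase across the cleft, was counted at 2699, 2231 and 2413 in controls, 1555, 2219 and 2099 in Islet1Cre;Ebf1fl/-, and 1646, 1471 and 1575 in Dlx5/6::Cre;Ebf1fl/-. Both mutants lay below the controls, Islet1Cre;Ebf1fl/- replicate 2 narrowly so, as they did for 7.28% (Islet1Cre;Ebf1fl/-) and 11.3% (Dlx5/6::Cre;Ebf1fl/-) of all genes tested. The log2 fold change was −0.65 in Dlx5/6::Cre;Ebf1fl/- (SE 0.13, edgeR adjusted p = 0.0268) and −0.32 in Islet1Cre;Ebf1fl/- (SE 0.13, edgeR adjusted p = 0.491). The call in Dlx5/6::Cre;Ebf1fl/- was lost without control 1, control 3, Dlx5/6::Cre;Ebf1fl/- replicate 2 or Dlx5/6::Cre;Ebf1fl/- replicate 3, with values of −0.57 to −0.66 and edgeR adjusted p values of 0.0859 to 0.112. Neither Car11 nor Ntrk3 was called with the code prefix in the model or without both libraries that held Xist and Y-linked RNA. The summed level of 7 markers of interneurons was 352 to 395 CPM in controls, 347 to 400 in Islet1Cre;Ebf1fl/- and 204 to 349 in Dlx5/6::Cre;Ebf1fl/-, and its part in these differences was not tested.

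By group, 15 further neurexin ligands were tested and had a median log2 fold change of −0.06 in Islet1Cre;Ebf1fl/- and 0.28 in Dlx5/6::Cre;Ebf1fl/-, where 1, Car11, was called. The 17 receptor phosphatases and partners had medians of −0.11 and 0.02, with 1 call, Ntrk3, in Dlx5/6::Cre;Ebf1fl/-. The 19 scaffolds had medians of 0.0035 and −0.0082, the 10 genes of calsyntenin transport and cleavage 0.00085 and 0.06, the 4 SynCAMs 0.01 and 0.07, and the 3 splicing regulators 0.02 and 0.10, with 0 calls in each. The 2 inhibitors of neuroligins had medians of −0.42 and −0.23, also with 0 calls. Genes that DESeq2 called and edgeR did not were Mdga1 and Lrrtm2 in Islet1Cre;Ebf1fl/- and Slitrk6 in Dlx5/6::Cre;Ebf1fl/-, and these are named for that, after their values had been seen. Mdga1, which binds neuroligin-2 and hinders its contact with neurexins, had a log2 fold change of −0.72 in Islet1Cre;Ebf1fl/- (edgeR, adjusted p = 0.125). Lrrtm2, a postsynaptic neurexin ligand, had −0.46 in Islet1Cre;Ebf1fl/- (edgeR, adjusted p = 0.102), and Slitrk6, a membrane protein with leucine-rich repeats, had 1.31 in Dlx5/6::Cre;Ebf1fl/- (edgeR, adjusted p = 0.0632).

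**Figure D5:**
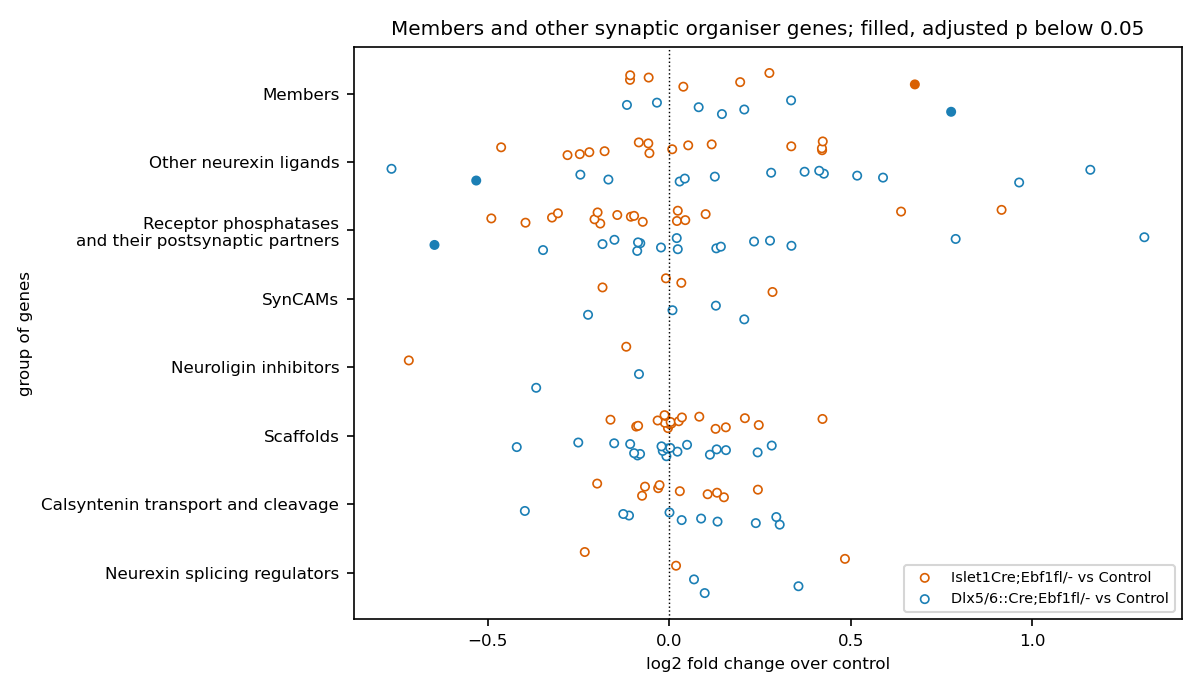
Log2 fold change over control of the members and of the 70 other genes tested, with 1 point per gene and genotype (Islet1Cre;Ebf1fl/- orange, Dlx5/6::Cre;Ebf1fl/- blue), by group of genes, filled where the adjusted p is below 0.05. Filled points are Clstn2 in both mutants and, in Dlx5/6::Cre;Ebf1fl/-, Car11 at −0.53 and Ntrk3 at −0.65, and the other points are open on either side of 0.

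Among 10488 genes with a mean log2 CPM of at least 3, those whose pattern over the 9 embryos was most like that of Clstn2 were Ndrg1, Ypel2 and Pid1. Likeness was measured as the root mean square difference of TMM-scaled log2 CPM after centring each gene. It was 0.0821, 0.0977 and 0.0991, with a median of 0.395 over all genes compared. Ndrg1 had a log2 fold change of 0.70 in Islet1Cre;Ebf1fl/- (edgeR, adjusted p = 0.0699) and 0.81 in Dlx5/6::Cre;Ebf1fl/- (edgeR, adjusted p = 0.0208). Pid1 had 0.64 (edgeR, adjusted p = 0.0712) and 0.69 (edgeR, adjusted p = 0.0279), and Ypel2 had 0.49 (edgeR, adjusted p = 0.271) and 0.63 (edgeR, adjusted p = 0.0623). This is a description of levels over embryos that share 3 genotypes.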

How the data were processed

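Per the labels and the study's methods, libraries were made from polyadenylated RNA with a stranded kit, read over 75 bases and mapped with STAR 2.4.0k; reads matching more than 1 position were removed and the rest were counted with HTSeq 0.5.3. The deposited values are whole-number counts per Ensembl gene, without normalization. The strand setting of the counting is not given in the sources used here, so reads of overlapping antisense genes may not be separated. At most 0.0638% of the 75-base windows of a member's transcripts occurred in another counted gene. Of the identifiers, 44133 were found in GENCODE M21.

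Groups and replicate numbers were taken from sample titles. No replicates agreed within sampling noise (chi-square per degree of freedom at least 10.5). Counts were filtered with filterByExpr (minimum count 10), scaled by TMM and tested with the quasi-likelihood test of edgeR 4.0.16 (R 4.3.3) on all 9 samples in 1 fit with 3 genotypes, two-sided, with Benjamini-Hochberg adjustment and a threshold of 0.05. Standard errors follow from the log2 fold change and the F statistic. DESeq2 1.42.0 gave size factors and an alternative test. The edgeR test was also run on simulated data with known changes. Alternatives also covered scaling, filters, samples, replicate numbers, embryo codes and single embryos left out.

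Named genes were the members, Ebf1, genes of the adhesion list that passed the threshold in a mutant and the 3 genes nearest in pattern to a called member. The members and lists were chosen with earlier results of these data known. Promoters came from RefSeq; none was listed for Nrxn2 and Nlgn3.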

Additional observations from a re-analysis of the deposited data

How the results depend on the processing

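Fold changes of the members against control kept their direction under other scalings, filters and tests, and with the replicate block. The sign was reversed for Nlgn3 in Dlx5/6::Cre;Ebf1fl/- with the prefix covariate (0.049, the same within 1 prefix). Leaving out single embryos gave ranges that cross 0 for Clstn1 (−0.013 to 0.081), Nlgn1 (−0.23 to 0.033), Nlgn2 (−0.10 to 0.013) and Car11 (−0.14 to 0.038) in Islet1Cre;Ebf1fl/-, and for Nlgn1 (−0.16 to 0.27) and Nlgn3 (−0.092 to 0.034) in Dlx5/6::Cre;Ebf1fl/-. The members called in Islet1Cre;Ebf1fl/- fell from 1 to 0 with the prefix covariate, within 1 prefix and without both libraries holding Xist and Y-linked RNA, and those called in Dlx5/6::Cre;Ebf1fl/- fell from 1 to 0 in the first pair of these and with the 6 samples of the comparison. Single embryos left out gave 0 to 1 in either. Of the other adhesion genes, in Islet1Cre;Ebf1fl/- 2 were called by DESeq2, 1 without a filter and 1 with 6 samples (0 to 2 without single embryos); in Dlx5/6::Cre;Ebf1fl/-, beside 2, 3 were called by DESeq2 and without a filter, 1 with 6 samples and with the replicate block, and 0 with the prefix, within it and without both libraries (0 to 5 without single embryos). Over all genes, calls in Islet1Cre;Ebf1fl/- went from 159 to 401 by DESeq2, 311 without a filter, 259 with 6 samples, 61 with or within the prefix and 52 without both libraries (15 to 397 without single embryos). In Dlx5/6::Cre;Ebf1fl/- they went from 392 to 862, 708, 181, 32 and 138, respectively (143 to 613). Between the mutants, where 0 were called, the corresponding fits gave 18, 13, 2, 1 and 3 (0 to 4). Some fits held fewer samples, and causes were not tested. Among the fits without single embryos, the most calls over all genes against control, 397 and 613, came without Dlx5/6::Cre;Ebf1fl/- replicate 1. Replicate numbers did not pair embryos: deviations of same-numbered embryos correlated at −0.23 to 0.18. The replicate block gave 143 and 363 calls in the mutants, kept Clstn2 called (adjusted p = 0.0251 and 0.00781) and lost Ntrk3. Of the members, Nrxn2 was not detectable in these counts and could not be tested.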
